A study of Drosophila melanogaster and Drosophila simulans and Drosophila yakuba with 72 samples.

Results

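The comparison set males of 1 stock of Drosophila simulans against males of 4 strains of its close relative D. melanogaster, before the onset of metamorphosis. The members were the 20 male samples that the labels place at a stage of at least 18 before puparium formation, of 72 samples in the series. The unit of that 18 is not stated in the labels and is read here as hours, and the stage is called the earlier stage. There were 4 samples of the D. simulans stock 14021-0251.167 and 4 each of the D. melanogaster strains Canton-S, Oregon-R, Zimbabwe-109 and Samarkand. The 4 strain means counted equally in the D. melanogaster mean. All groups were untreated whole animals grown at 25 °C on medium with 0.05% bromophenol blue, and each sample was RNA from a pool of about 120 mg, or 60 to 80 animals. D. simulans was represented by 1 stock, so what belongs to the species and what belongs to that stock cannot be told apart. The other groups of the series are the same strains at puparium formation, females of 3 of them and a stock of D. yakuba.

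MicroRNAs (miRNAs) are short RNAs cut from a hairpin precursor, and either arm of the hairpin (5p or 3p) can be loaded into a silencing complex. Bases 2 to 8 of the mature strand, the seed, pair with target messenger RNAs. Before the larva-to-pupa transition in Drosophila the steroid ecdysone rises, and miRNAs such as let-7 and miR-34 are known to respond to it. The array held 1339 miRNA probes of many insect species, each printed as 3 spots, with the target sequence given for every probe. A probe with a letter that mismatches the RNA of a species can bind it less well, so a difference between species on 1 probe can reflect the amount of the RNA, its sequence or both, and these cannot be told apart from that probe alone.

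Between 87 and 258 probes were above background per sample. The extremes were Samarkand replicate 4 with 87 and D. simulans replicate 3 with 258, which stood apart from the other 3 D. simulans samples at 135 to 168. Median correlations with the other replicates of a group lay between 0.952 and 0.986. D. simulans replicates 1 and 2 shared a slide with Oregon-R and replicates 3 and 4 shared a slide with Canton-S, whereas Samarkand and Zimbabwe-109 lay on other slides. In the comparison of D. simulans with those latter strains slide and species cannot be told apart. Differences are therefore also given within the shared slides where they bear on a result. Of the stage markers let-7, miR-100 and miR-125, which are low before puparium formation, 3 of 14 probes were above background in any of the 20 samples. Of the 10 tested, 0 differed between the species in these males. Of 3 probes for the muscle markers miR-1 and miR-133, 1 for miR-1 was above background in all 20 samples and 2 in 0 of them. Of 2 probes for the neuron marker miR-124, 1 was above background in any of the 20. Both were tested, and 0 differed between the species. Of 31 probes for the testis miRNAs, 27 were above background in 0 of the 20. Of the gut and fat body markers 1 of 18 tested probes was higher in D. simulans, aae-miR-14. Of the 7 tested markers of ovary and early embryo 3 were higher, the miR-312 forms described below, and the F test among strains called 6. All 7 belong to the miR-310 cluster, and the 15 probes for the other 6 miRNAs of that marker list were above background in 0 of the 20 samples.

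Of 272 tested probes 24 differed between D. simulans and the D. melanogaster mean at an adjusted p under 0.05 in limma, which is 8.82% of those tested. In D. simulans 13 probes (4.78%) were higher and 11 (4.04%) were lower, and 63 probes (23.2%) had an unadjusted p under 0.05. The fitted differences are on the log2 scale, with the SE of the fit. For 8 of the 24 probes 1 of the species was below background throughout, D. melanogaster for 3 and D. simulans for 5. There the fitted difference depends on the background correction and is no measure of rank, so a bound on the fold is given where one exists. That of miR-2500, for example, was 2.45 ± 0.09 and ran from 1.40 to 9.45 over other settings. Of the 24 probes 4 were above background in all 20 samples, against 72 of the 272 tested. When only those 72 were tested, 0 were called by limma, and 17 had an unadjusted p under 0.05. Without D. simulans replicate 3 the count was 16, without Oregon-R it was 47. Against Oregon-R alone it was 45 (16.5%) and against Zimbabwe-109 alone 76 (27.9%). How many were higher and how many lower depended on the scaling. With median centring, which moved the median of all tested probes from -0.01 to -0.40, 2 were higher and 27 lower. Cyclic loess gave 7 higher and 10 lower. The authors' deposited table, in which the median was 0.29, gave 7 higher and 9 lower.

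The 4 strains of D. melanogaster also differed from each other. An F test among them called 101 probes (37.1%), and the median SD of the 4 strain means was 0.26 over all tested probes. The D. simulans mean lay outside all 4 strain means for 93 probes (34.2%), 43 (15.8%) above and 50 (18.4%) below, and for 22 of the 24 called probes. The 2 exceptions were miR-279 and bmo-miR-3366. All 4 D. simulans samples lay beyond all 16 D. melanogaster samples for 7 probes (2.57%), and these 7 were among the 24. They were miR-2500, dsi-miR-965, dsi-mir-314-5p, dse-miR-312 and der-miR-312, which were higher (1.84%), and sdylib-seq-1-3p and 53-3p, which were lower (0.735%). When each strain mean was taken as a single value, so that the error was the spread among strains on 3 residual degrees of freedom, limma called 2 probes (0.735%), miR-2500 and dsi-miR-965, and 14 (5.15%) had an unadjusted p under 0.05. On both called probes D. melanogaster was above background in 0 of 16 samples, so their strain SDs, 0.07 and 0.04, are the spread of background and not of expression among strains, and these calls do not judge the difference against such a spread. With strain as a random block 5 probes (1.84%) were called, namely those 2, dsi-mir-314-5p, and der-miR-312 higher (1.47%) and sdylib-seq-1-3p lower (0.368%). On dsi-mir-314-5p too D. melanogaster was below background throughout. On der-miR-312 it was above background in 1 of 16 samples, from Zimbabwe-109. The strain SD of that probe, 0.145, is therefore also mainly the spread of background.

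**Figure D1:**
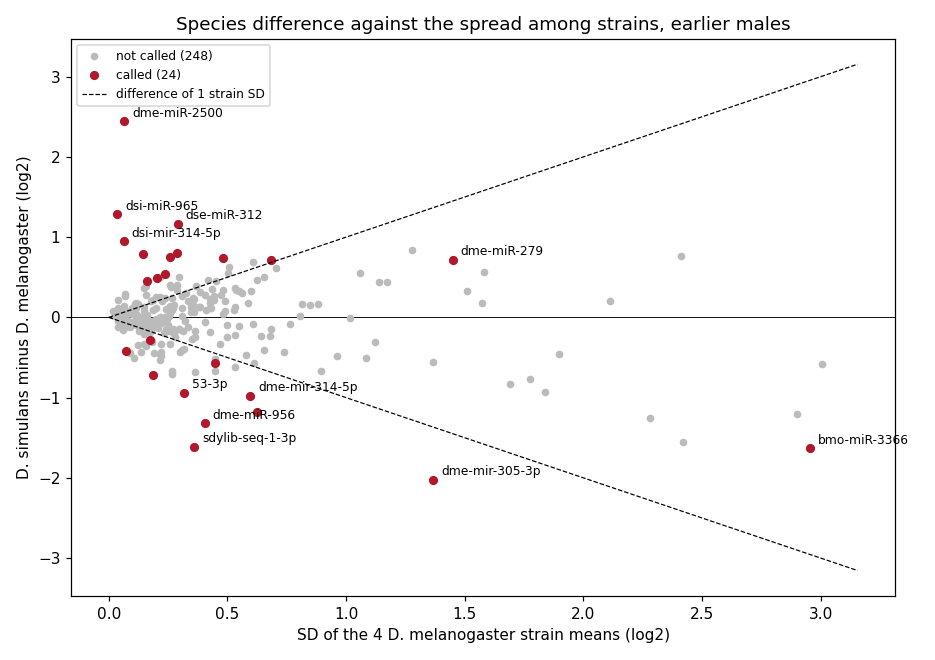
Difference between D. simulans and the mean of 4 D. melanogaster strains in earlier males (vertical axis, log2) against the SD of the 4 strain means (horizontal axis, log2) for 272 tested probes. Red points are the 24 called probes and dashed lines mark a difference of 1 strain SD. miR-2500 stands at 2.45 with a strain SD of 0.07, all strains being below background, whereas bmo-miR-3366 at -1.63 has a strain SD of 2.96 and miR-279 at 0.72 has one of 1.45.

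The probes that separated the species most include pairs made for the D. melanogaster and the D. simulans form of the same miRNA arm. Their targets are shown with the letters in capitals at which the forms differ, positions being counted from 1 at the 5′ end.
dme-mir-965-5p: gggguAaaacuguacguuauaug
dsi-miR-965: gggguGaaacuguacguuauaug
dme-mir-314-5p: aacuuguguggcuucgaaCUuacC
dsi-mir-314-5p: aacuuguguggcuucgaaUGuac
dme-mir-305-3p: cggcacaugUugaaguacacuca
dsi-mir-305-3p: cggcacaugCugaaguacacuca
The mir-965 forms differ by A6G, which lies within the seed, and the mir-305-3p forms by U10C. The mir-314-5p forms differ by C19U and U20G, and the D. melanogaster form is 24 bases long against 23. The target of miR-2500, listed for D. melanogaster and not for D. simulans, is shown with its seed in capitals.
dme-miR-2500: gGAUUUUGuguguggaccucag
All sequences are the array's own target letters. By symbol the RefSeq annotation of D. melanogaster (Release 6 plus ISO1 MT) places mir-2500 and mir-314 on 3L and mir-965 and mir-305 on 2L.

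miR-2500 read 9.0, 8.30, 8.10 and 8.37 in the 4 D. simulans samples (log2 intensity, as all levels below). In the 16 D. melanogaster samples it ran from 5.83 to 6.13 with a median of 5.99. It was above background in 4 of 4 D. simulans samples and in 0 of 16 D. melanogaster samples, although the probe is listed for D. melanogaster. The groups did not overlap, and the level was at least 3.02-fold higher in D. simulans (adjusted p = 8.2e-32). Within the shared slides miR-2500 was higher than in Oregon-R by 2.59 and than in Canton-S by 2.19. It was at least 3.67-fold higher at puparium formation and at least 5.24-fold higher in earlier females, and these bounds do not rank the stages or sexes. D. yakuba males of the earlier stage read 5.87 on average, with 0 of 4 above background.

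miR-965 is known in D. melanogaster from the histoblasts, the precursor cells of the adult abdomen. On the probe for the D. simulans form the 4 D. simulans samples read 7.75, 7.28, 7.02 and 6.99. The 16 D. melanogaster samples were all below background, with strain means between 5.94 and 6.02. D. simulans was at least 1.33-fold higher there (difference 1.29 ± 0.08, adjusted p = 3.7e-21). On the probe for the D. melanogaster form the difference was -0.30 ± 0.13 (adjusted p = 0.147). That probe was above background in 0 of 4 D. simulans samples and in 4 of 16 D. melanogaster samples, 2 of Oregon-R and 2 of Canton-S. Its D. simulans mean of 6.34 lay below the 4 strain means of 6.42 to 6.82.

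For the 5p arm of mir-314 the 2 probes differed in opposite directions and both were called. On the probe for the D. simulans form D. simulans read 6.84, 6.78, 7.39 and 6.81, with 3 of 4 samples above background. D. melanogaster was above background in 0 of 16 samples, with strain means of 5.95 to 6.10, so D. simulans was at least 1.08-fold higher (0.95 ± 0.07, adjusted p = 1.52e-16). On the probe for the D. melanogaster form D. simulans read 5.95, 6.05, 6.05 and 6.06, all below background. The D. melanogaster samples ran there from 5.88 to 8.40 with a median of 6.96, and 11 of 16 were above background. D. simulans was at least 1.33-fold lower (-0.97 ± 0.18, adjusted p = 2.44e-05), though 1 Samarkand sample at 5.88 lay below the D. simulans samples. The strains differed on this probe, from 6.49 in Samarkand to 7.84 in Zimbabwe-109 (F test adjusted p = 6.02e-06). D. yakuba read 6.80 on the D. simulans form, with 2 of 4 above background, and 5.92 on the D. melanogaster form, with 0 of 4.

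miR-305 regulates growth and the intestinal stem cells of D. melanogaster, and its 3p strand is the partner arm. On dme-mir-305-3p the D. simulans samples read 5.96, 6.19, 5.89 and 6.36, all below background. Oregon-R averaged 9.05, Canton-S 8.99 and Zimbabwe-109 8.32, with 4 of 4 samples of each above background. Samarkand read 6.40, 6.14, 6.13 and 5.87 and was below background throughout, overlapping D. simulans. The pooled difference of -2.02 ± 0.21 (adjusted p = 8.2e-12) thus held against 3 strains, at -2.97 and -2.87 within the slides of Oregon-R and Canton-S, and was -0.03 against Samarkand (adjusted p = 0.993). The strain SD was 1.37 and the strain-level adjusted p was 0.975. D. yakuba, at 8.53 with 4 of 4 above background, read like the 3 bright strains. The probe for the D. simulans form showed 0.29 ± 0.16 (adjusted p = 0.301), and was above background in 2 of 4 samples of the former species and 3 of 16 of the latter.

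Of 34 pairs of probes with the same miRNA name, made for forms listed for only D. melanogaster and only D. simulans, 7 had both probes tested. The difference between D. simulans and D. melanogaster was higher on the D. simulans probe in 6 of the 7. Beside the 3 pairs above these were miR-312, miR-10 (-0.15 ± 0.16 and 0.18 ± 0.23) and miR-34. The exception was miR-305 of the 5p arm, with 0.22 ± 0.20 on the D. melanogaster and 0.13 ± 0.16 on the D. simulans probe. Differences between the 2 probes of a pair were not tested. Grouped by listing, 4 of 29 tested probes listed for D. simulans alone were higher and 0 lower, and of 40 listed for D. melanogaster alone 2 were higher and 4 lower. Of 50 listed for both species 2 were higher (miR-13b and miR-279) and 0 lower, and of 153 listed for neither 5 were higher and 7 lower. Over all tested probes the shares were 4.78% higher and 4.04% lower. A probe was tested when any group passed the detection filter, D. simulans included. dsi-miR-965 and dsi-mir-314-5p, below background throughout in D. melanogaster, could therefore only come out higher. Likewise dme-mir-305-3p and dme-mir-314-5p, below background in D. simulans, could only come out lower. The counts by listing and by pair are thus partly set by the filter and are no test of direction.

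**Figure D2:**
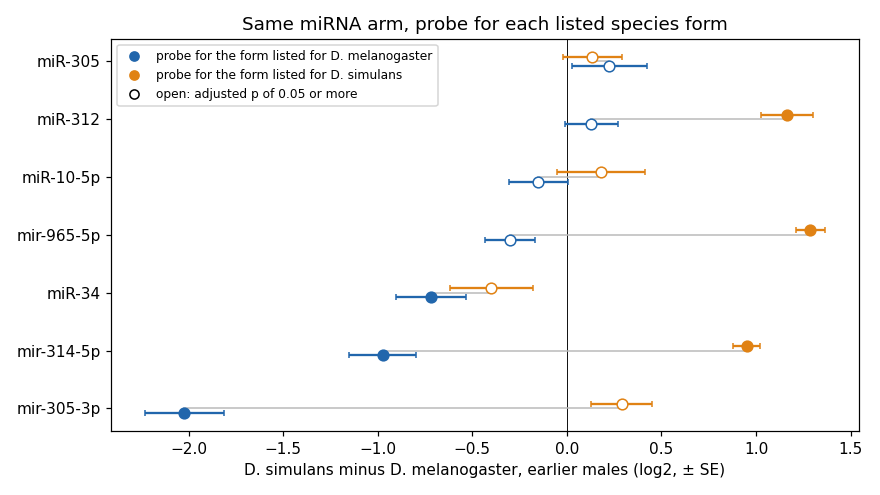
Difference between D. simulans and D. melanogaster in earlier males (horizontal axis, log2, bars ± SE) for the 7 miRNA arms with both a D. melanogaster probe (blue) and a D. simulans probe (orange) tested. Filled points have an adjusted p under 0.05. For mir-314-5p the blue point lies at -0.97 and the orange at 0.95, and for mir-305-3p they lie at -2.02 and 0.29.

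The miR-310 cluster, which includes miR-312 and evolves fast in Drosophila, shares a seed with the miR-92 family. All 3 of its called probes were miR-312 forms, and all were higher in D. simulans. The probe for the form listed for D. simulans, named dse-miR-312 on the array, read 8.07, 7.80, 7.37 and 7.68 in D. simulans against 5.88 to 7.24 in the 16 D. melanogaster samples. The groups did not overlap and the difference was 1.16 ± 0.14, or 2.24-fold (adjusted p = 5.79e-10). It was 1.47 within the Oregon-R slide and 0.56 within the Canton-S slide. der-miR-312, a form of D. erecta, read 6.96, 7.13, 6.98 and 6.94 in D. simulans and between 5.91 and 6.51 in D. melanogaster (0.79 ± 0.10, adjusted p = 1.19e-08). dan-miR-312, of D. ananassae, read 8.04, 8.13, 7.87 and 8.01 (0.75 ± 0.13, 1.68-fold, adjusted p = 8.66e-06), and its highest D. melanogaster sample, at 7.91, overlapped D. simulans replicate 3. The difference was 0.85 within the Oregon-R slide and 0.30 within the Canton-S slide. Against Canton-S alone it was 0.38 and not called (adjusted p = 0.183), and the strain-level adjusted p was 0.925. D. yakuba males averaged 7.36 on this probe and 6.89 on dse-miR-312.

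The probe for the D. melanogaster form of miR-312 did not pass the test (0.13 ± 0.14, adjusted p = 0.623). Its signal exceeded background in 3 of 4 samples of D. simulans and in 8 of 16 of D. melanogaster. The called probes differ from each other by at most 3 edits, so the 3 are not independent readings. Other tested members of the cluster were not called. Of these, dme-mir-313-5p differed by -0.83 ± 0.37 (adjusted p = 0.151), with strain means from 10.10 in Oregon-R to 13.97 in Zimbabwe-109. In females the same 3 miR-312 probes showed no difference past the test: 0.01 ± 0.15, -0.27 ± 0.11 and -0.03 ± 0.14 for the D. simulans, D. erecta and D. ananassae forms. The test of the difference between the sexes called all 3, with interactions of 1.35, 1.12 and 0.90 (adjusted p = 4.39e-06, 9.07e-07 and 0.0019). That test set D. simulans against Oregon-R and Zimbabwe-109 in both sexes, so it is not the 4-strain male difference minus the female one. Males and females were on separate slides, so sex and slide cannot be told apart in these interactions. They also depended on the scaling: all 3 stayed positive but did not pass the test with median centring (0.48 to 0.62, adjusted p = 0.45 to 0.709) or with cyclic loess (0.11 to 0.40, adjusted p = 0.288 to 0.887). At puparium formation the 3 differences in males were 1.24 ± 0.14, 0.87 ± 0.10 and 0.89 ± 0.13, all called.

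miR-956 was lower in D. simulans. Its gene and mir-314 lie next to each other on 3L in D. melanogaster, with 0 annotated genes starting between them. The target, listed for D. melanogaster alone, is shown with the seed in capitals.
dme-miR-956: uUUCGAGAccacucuaauccauu
D. simulans read 6.97, 6.72, 6.44 and 6.57 against 6.78 to 9.41 with a median of 7.94 in D. melanogaster. Only Canton-S replicate 4, at 6.78, fell within the D. simulans range. The difference was -1.32 ± 0.24, or 2.50-fold lower (adjusted p = 2.44e-05), and the strain-level adjusted p was 0.825. It was -1.04 ± 0.24 at puparium formation and -2.11 ± 0.26 in earlier females, both called. D. yakuba males averaged 7.37, with 4 of 4 above background.

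Custom probes of the study, whose names carry no known miRNA, gave 4 further calls with lower or higher levels. On sdylib-seq-1-3p D. simulans read 5.92, 6.01, 5.86 and 5.87, with 0 of 4 above background. D. melanogaster ran from 6.90 to 8.38, with 10 of 16 samples above background and 1 of 4 in Samarkand. Oregon-R was the brightest strain with a mean of 8.06. The groups did not overlap and D. simulans was at least 1.93-fold lower (-1.61 ± 0.22, adjusted p = 3.55e-08). The other arm by name, sdylib-seq-1-5p, read 6.01 to 6.49 in D. simulans and 6.30 to 9.15 in D. melanogaster (-1.18 ± 0.21, adjusted p = 2.1e-05). The strains differed on this arm, from 6.62 in Samarkand to 8.11 in Zimbabwe-109 (F test adjusted p = 7.04e-05). Samarkand was above background in 0 of 4 samples, and the difference against it alone was -0.38 (adjusted p = 0.485). The strain-level adjusted p was 0.975. D. yakuba was below background on both arms, with means of 5.83 and 5.93. The custom probe 53-3p read 5.93 to 6.00 in D. simulans against 6.22 to 7.52 in D. melanogaster, at least 1.25-fold lower with no overlap (-0.94 ± 0.17, adjusted p = 2.44e-05). On sdylib-seq-3-3p, above background in only 1 sample of each species, D. simulans was higher by 0.45 ± 0.10 (adjusted p = 7.76e-04), a sign that median centring turned (-0.19).

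miR-34, tied to ecdysone and to neuronal ageing, and miR-317 belong with miR-277 to the same gene cluster. The array held the D. melanogaster form of miR-34 and a shorter form listed for D. simulans, whose targets differ at the 3′ end only.
dme-miR-34: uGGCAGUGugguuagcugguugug
der-miR-34: uGGCAGUGugguuagcugguug
Capitals mark the seed, which both share. On dme-miR-34 D. simulans read 7.91, 7.46, 7.35 and 7.69 and D. melanogaster 7.68 to 8.82 with a median of 8.38. The difference was -0.72 ± 0.19, or 1.65-fold (adjusted p = 0.00528), and the strain means of 8.17 to 8.60 all lay above D. simulans at 7.60. Without D. simulans replicate 3 it was -0.59 and not called (adjusted p = 0.0743). On the shorter form it was -0.40 ± 0.22 (adjusted p = 0.301). 2 further tested miR-34 forms, of the honey bee and the mosquito Anopheles gambiae, differed by -0.45 ± 0.16 and -0.44 ± 0.19 and were not called. aae-miR-317, a form of the mosquito Aedes aegypti, was lower by -0.57 ± 0.14 (adjusted p = 0.00436), with Oregon-R at 8.04 and the other strains at 7.10 to 7.21 against 6.80. dme-miR-317 itself differed by -0.15 ± 0.23 (adjusted p = 0.737). Of 13 tested probes of this cluster 0 were higher and 2 lower, where 4.04% of all tested probes were lower, with a median of -0.28 against -0.01 over all tested probes. miR-277, which acts on the breakdown of branched-chain amino acids, went the other way without passing the test (0.51 ± 0.22, adjusted p = 0.147).

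miR-13b belongs to the miR-2 family, whose seed matches the K-box motif and whose targets include pro-apoptotic genes. It was higher in D. simulans, at 11.32, 11.03, 11.01 and 10.86 against 9.05 to 11.23 (0.74 ± 0.24, 1.67-fold, adjusted p = 0.044). D. simulans overlapped mainly with Oregon-R at 10.63 and Samarkand at 10.82, while Canton-S and Zimbabwe-109 averaged 9.96 and 9.84. Probes of 3 other miR-13 forms with at most 2 edits differed by 0.35 to 0.69 and were not called. Of 22 tested probes of the family 1 was higher and 0 were lower, with a median of 0.01. The call for miR-13b was lost when any of several single samples was left out, each D. simulans sample included (adjusted p = 0.0611 to 0.106 for the latter).

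miR-279, known from the neurons that sense carbon dioxide, is a case where the pooled difference lay within the strain range. D. simulans averaged 11.59, below Oregon-R at 12.85 and above Canton-S at 10.66, Samarkand at 10.63 and Zimbabwe-109 at 9.36. The pooled difference was 0.72 ± 0.23 (adjusted p = 0.044), the strain SD 1.45 and the strain-level adjusted p 0.975. Against Oregon-R alone it was -1.26 (adjusted p = 8.38e-04), and the F test among strains gave an adjusted p of 7.78e-14. Its genomic neighbour mir-996 was read on dme-mir-996-5p, which was higher in D. simulans at 7.33 to 7.52 against 5.97 to 7.42 (0.49 ± 0.16, adjusted p = 0.0466), though at -0.05 with median centring, and was not called without D. simulans replicate 3 (adjusted p = 0.112). bmo-miR-3366, a silkworm probe, was the other call within the strain range. Zimbabwe-109 averaged 12.51 on it and the remaining groups, D. simulans included, between 6.03 and 6.99 (-1.63 ± 0.46, adjusted p = 0.0118). Without Zimbabwe-109 the difference was -0.17 (adjusted p = 0.955). Neither miR-279 nor bmo-miR-3366 was called without D. simulans replicate 3 (adjusted p = 0.071 and 0.0537).

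Without D. simulans replicate 3, the sample with the most probes above background, 10 of the 24 probes lost the call. On aae-bantam-3p, a form of bantam, which promotes growth and blocks cell death, D. simulans read 8.55, 8.37, 9.54 and 8.14 against 6.59 to 8.79 (0.80 ± 0.25, adjusted p = 0.0327). Without replicate 3 the difference was 0.51 (adjusted p = 0.358). Other bantam forms 1 edit away were not called. These were dme-bantam (0.36 ± 0.16) and cqu-bantam* (0.50 ± 0.22), each with an adjusted p of 0.151. On dme-bantam few samples were above background, 1 from D. simulans and 2 from D. melanogaster. miR-14 is known for its effects on cell death and fat metabolism. On its form aae-miR-14 D. simulans read 13.96, 14.46, 14.79 and 14.50 against 12.91 to 14.45 (0.53 ± 0.17, adjusted p = 0.044). Leaving out replicate 3 gave 0.36 (adjusted p = 0.358). dme-miR-14, 1 edit away, differed by 0.08 ± 0.63 (adjusted p = 0.959). It was below background throughout, so it cannot judge that call. On aae-miR-252 the D. simulans samples read 10.87, 10.92, 9.95 and 10.80 against 10.62 to 11.51 (-0.42 ± 0.14, adjusted p = 0.0466). Replicate 3 alone lay below all D. melanogaster samples, and without it the difference was -0.18 (adjusted p = 0.614). dme-miR-252 differed by -0.17 ± 0.17 (adjusted p = 0.596). Of the last calls, dsi-wu-mir-2359-5p was higher by 0.71 ± 0.19 (adjusted p = 0.00727) with strain means from 6.72 to 8.11 against 8.25, and without replicate 3 by 0.56 (adjusted p = 0.109). bmo-miR-2724 was lower by -0.28 ± 0.09 (adjusted p = 0.0466), with 1 of 20 samples above background, and lost the call in 12 of the 20 fits that each left out 1 sample.

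**Figure D3:**
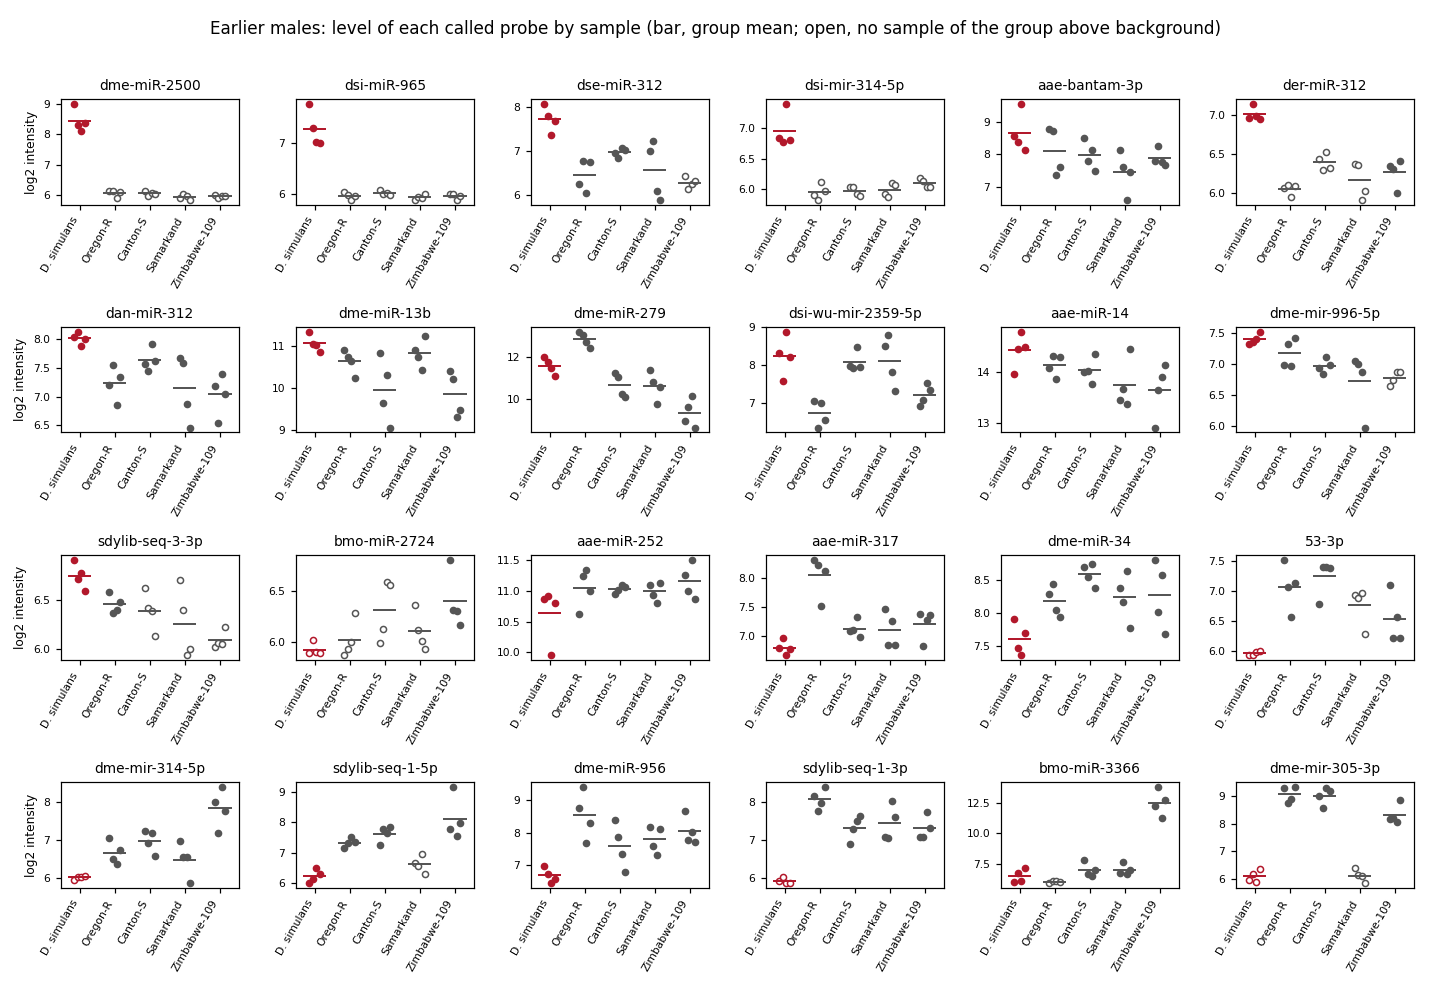
Level of the 24 called probes in each of the 20 earlier male samples (vertical axes, log2 intensity), by strain, with D. simulans in red. Bars are group means and open points mark groups with no sample above background. The 4 D. simulans samples of miR-2500 lie at 8.10 to 9.0 above all others, whereas on dme-mir-305-3p both D. simulans and Samarkand lie near 6.

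The 10 brightest tested probes listed for D. melanogaster did not pass the test in either direction. miR-1, the muscle miRNA, averaged 14.64 in D. simulans and 13.90 to 14.54 in the strains (0.34 ± 0.24, adjusted p = 0.455). miR-184, a regulator of germline and early development, read 13.32 against 13.04 to 13.77 (0.06 ± 0.18). miR-8, which acts on growth through insulin signalling in the fat body, read 12.49 against 11.75 to 12.58 (0.24 ± 0.18), and its 5p arm differed by -0.24 ± 0.17. miR-275 read 12.85, above the 4 strain means of 12.09 to 12.68 (0.38 ± 0.15, adjusted p = 0.0977). miR-263a, which protects sense organ cells from death, differed by -0.06 ± 0.16, and miR-10-5p of the Hox cluster by -0.15 ± 0.16. The remaining 3, dme-mir-313-5p, dme-mir-14-5p and also dme-wu-mir-2318-5p, varied widely among the strains. dme-wu-mir-2318-5p ran from 8.21 in Oregon-R to 15.37 in Zimbabwe-109, with D. simulans at 11.79 (-0.58 ± 0.50).

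Counts for groups of miRNAs with a shared role are given as a description, since 8.82% of all tested probes were called and groups of this size would hold few calls at that share. In the let-7 complex, which times the transition to the adult, 0 of 10 tested probes were called (median 0.05), and let-7 itself read 7.32 in D. simulans against 7.36 to 7.71 (-0.21 ± 0.25, adjusted p = 0.663). Called probes numbered 0 of 12 for muscle, 0 of 9 for the miR-9 family, 0 of 7 for the Hox clusters, 0 of 6 for the mirtrons and 0 of 2 for the testis clusters. The muscle list had a median of 0.31, and the F test among strains called 7 of its 12 probes. Of 20 probes for sense organs and nervous system 2 were higher, miR-279 and dme-mir-996-5p, with a median of -0.05. The growth and cell death list held 2 higher of 26, aae-bantam-3p and aae-miR-14 (median 0.15). Among 37 probes for gut, fat body and metabolism 1 was higher, aae-miR-14, and 1 lower, dme-mir-305-3p (median 0.13). In the miR-310 cluster the 3 miR-312 probes described above were higher and 0 lower of 7 tested (median 0.13).

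The same contrast was read in 2 other sets of samples. In males at puparium formation 32 probes (11.8%) were called, and of the 24 earlier ones 14 were called there in the same direction and 23 had the same sign. The exception in sign was miR-279, at -0.11 ± 0.23. The earlier and the later sample of a replicate shared an array. In earlier females, with Oregon-R and Zimbabwe-109 as the D. melanogaster strains, 108 probes (39.7%) were called. The female D. simulans samples shared a slide with some of the Zimbabwe-109 samples and with none of Oregon-R. Species and slide therefore cannot be fully told apart in females. The stage markers differed there. On the D. melanogaster probes let-7 was higher in D. simulans females by 1.18 ± 0.27 (adjusted p = 4.87e-04). miR-100 was higher by 1.14 ± 0.20 (adjusted p = 1.12e-05) and miR-125 by 1.14 ± 0.28 (adjusted p = 0.00103). Whether the females of the species differed in stage was not tested. Of the 24 probes 14 were called in females in the same direction, 19 had the same sign and 0 were called in the opposite direction. In all 3 sets 10 probes were called in the same direction: miR-2500, dsi-miR-965, dsi-mir-314-5p, dme-mir-996-5p and sdylib-seq-3-3p were higher, and dme-mir-305-3p, miR-956, 53-3p and both sdylib-seq-1 arms were lower.

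The change of the species difference between the stages was called for 3 probes (1.1%), 2 of them among the 24. On sdylib-seq-1-3p D. simulans was below background at both stages, and the fitted difference at puparium formation was -3.23 ± 0.22, at least 6.57-fold (interaction -1.62, adjusted p = 1.09e-06). On dsi-mir-314-5p D. melanogaster was below background at both stages and 1 of 4 D. simulans samples above it at puparium formation, with a fitted difference of 0.41 ± 0.07 (interaction -0.54, adjusted p = 1.09e-06). The difference between the sexes was called for 38 probes (14%) and for 8 of the 24. It set D. simulans against Oregon-R and Zimbabwe-109 in both sexes, so it does not follow from the 4-strain male difference. With median centring 2 probes were called, 0 of these 8 among them, and with cyclic loess 25, with 1 of the 8. Beside the 3 miR-312 forms the 8 were dsi-mir-314-5p, miR-13b, aae-miR-317, dsi-wu-mir-2359-5p and bmo-miR-2724. For miR-13b the difference was -0.25 ± 0.27 in females (interaction 1.07, adjusted p = 0.0466), and for aae-miR-317 it was 0.23 ± 0.16 (interaction -1.06, adjusted p = 0.00139). Among the stage markers the interaction was also called for let-7 (-1.40, adjusted p = 0.0130) and miR-100 (-0.91, adjusted p = 0.0251). It was not called for miR-125 (-1.04, adjusted p = 0.0702).

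**Figure D4:**
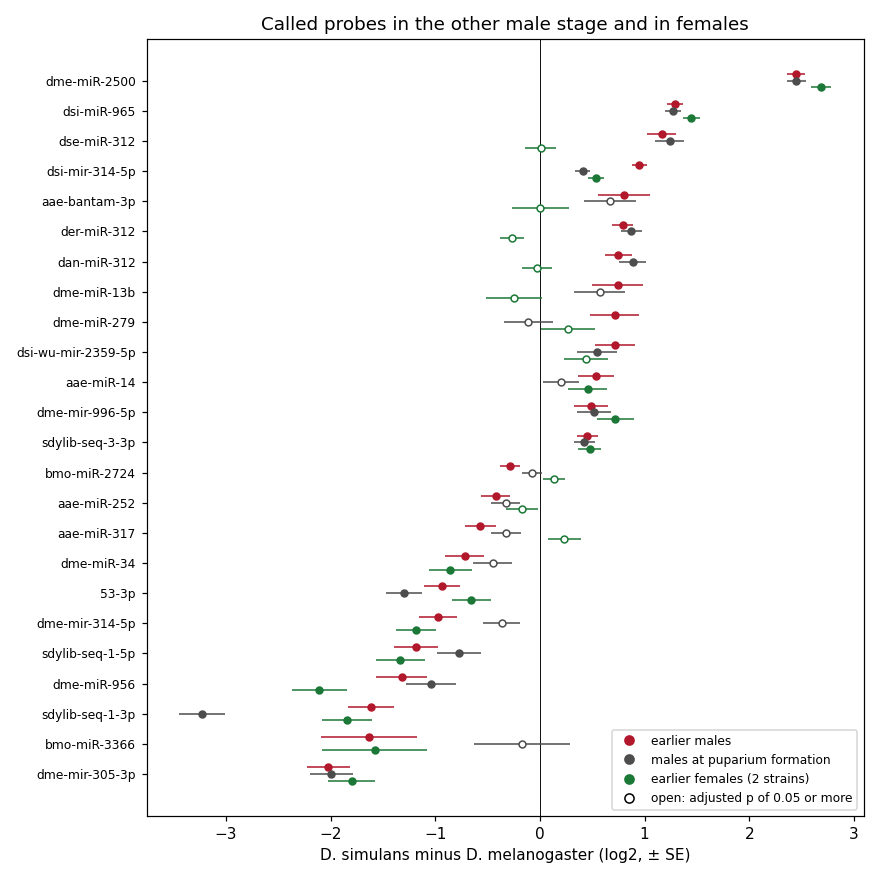
Difference between D. simulans and D. melanogaster (horizontal axis, log2, bars ± SE) for the 24 called probes in earlier males (red), males at puparium formation (grey) and earlier females (green). Filled points have an adjusted p under 0.05. The 3 miR-312 probes lie at 0.75 to 1.16 in earlier males and at -0.27 to 0.01 in females.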

How the data were processed

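Per the file headers, each deposited scanner file holds the median spot intensity of both dyes of an array, on a linear scale. Every array carried a group's earlier and later samples that share a number, one in each dye, swapped in 2 of 4 arrays per group. LC Sciences labelled the RNA, per the labels' protocols. The sources used here do not name the scanner or its software. A second deposited table holds the authors' processed intensity for 4333 of 5022 spots. Its values are linear, with column medians from 0.00375 to 5.04. How it was scaled and centred is not given, so it served only as an alternative.

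From the scanner intensity, background was corrected with normexp (offset 50) on the median of 689 empty spots, followed by loess within arrays, Aquantile between arrays over the miRNA spots, log2 and, for each probe, the median of its 3 spots. The 8 probes for 2S rRNA were left out. A probe was above background in a sample when its intensity exceeded the empty-spot median by 3 SD, and 272 of 1339 probes with 3 such samples in some group were tested. R 4.3.3 with limma 3.58.1 and statmod 1.5.0 fitted all 18 groups, dye being a covariate, array a random block (correlation 0.411), with Benjamini-Hochberg adjustment at 0.05 over all tested probes. The strain-level fit took the 5 strain means as values. The random block of strain had a correlation of 0.326. P-values measure the spread between these samples, which the series' design text calls biological replicates, and the number of arrays limits the precision. The methods were tested on simulated data.

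"At least" folds set the bright group's mean against, per sample, the higher of the lowest signal above background and the dim probe's own. That mean includes any samples of the bright group that were below background. The offset compresses other folds of dim probes. Probes were named by rule: called probes up to 15 each way, the 10 brightest listed for D. melanogaster, up to 4 brightest of each of 12 lists, and species pairs with a called member. dme-bantam, dme-miR-14, dme-miR-252, dme-miR-317, miR-305, the miR-10 pair and ame-miR-34 were added as relatives of called probes. The comparison, the probes and the lists were chosen with earlier results of these data known. The prefix of the custom probe 53-3p is left out.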

Additional observations from a re-analysis of the deposited data

Results flagged for a closer look

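In 120 sets of 4 samples (24 called probes in 5 strains), 8 had a sample far from the other 3 by Dixon's test. Chance gives about 1 set in 20. In D. simulans these were replicate 3 on dsi-mir-314-5p, at 7.39 against 6.78 to 6.84, replicate 3 on aae-miR-252, at 9.95 against 10.80 to 10.92, replicate 1 on dme-mir-314-5p, at 5.95 against 6.05 to 6.06, and replicate 2 on bmo-miR-2724, at 6.02 against 5.89 to 5.91. The last 2 sets were below background throughout. In Oregon-R replicate 4 read 5.89 on miR-2500 against 6.11 to 6.13, below background. On 53-3p Canton-S replicate 1 read 6.79 against 7.39 to 7.40. Samarkand replicate 4 read 6.29 on it against 6.89 to 6.96, a set below background throughout. On dsi-wu-mir-2359-5p Canton-S replicate 3 read 8.48 against 7.93 to 7.97.

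The species difference changed between the stages, by limma's interaction, for dsi-mir-314-5p (-0.54, adjusted p = 1.09e-06) and sdylib-seq-1-3p (-1.62, adjusted p = 1.09e-06). Between males and females of the earlier stage it differed for dse-miR-312 (1.35), der-miR-312 (1.12), dan-miR-312 (0.90), miR-13b (1.07), dsi-wu-mir-2359-5p (0.84), dsi-mir-314-5p (0.39), bmo-miR-2724 (-0.41) and aae-miR-317 (-1.06), with adjusted p from 9.07e-07 to 0.0466. Sex and slide cannot be told apart in these, and 0 of the 8 passed the test with median centring.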

How the results depend on the processing

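Of the 24 called probes 14 kept the call when each of 20 samples was left out in turn, and all 24 kept the sign. The other 10, which were miR-13b, miR-34, miR-279, aae-bantam-3p, bmo-miR-3366, aae-miR-14, aae-miR-252, bmo-miR-2724, dme-mir-996-5p and dsi-wu-mir-2359-5p, all lost it without D. simulans replicate 3. Over 29 other settings 20 probes kept the sign, and miR-2500 and sdylib-seq-1-3p kept the call in each setting that tested them. The sign turned for dme-mir-996-5p (-0.05) and sdylib-seq-3-3p (-0.19) with median centring. It turned for miR-279 with slide as a fixed block (-0.17), within the Oregon-R slide (-0.95) and against Oregon-R alone (-1.26), and for bmo-miR-3366 within that slide (0.36) and against that strain (0.47). The cause was not tested. The count of 24 was 16 to 27 with single samples left out and 17 without D. simulans replicate 3 and Samarkand replicates 3 and 4, a setting chosen after seeing the data, as was Aquantile over all spots, with 20. It was 16 to 29 over other background, normalization and source settings, 0 among probes above background in all 20 samples (72 tested, 17 with an unadjusted p under 0.05 in limma), 11 within the Canton-S slide, 5 with strain as a random block, 45 and 76 against Oregon-R and Zimbabwe-109 alone, and 47 without Oregon-R.

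The strain-level count of 2 was 0 with median centring, 0 among the probes above background in all 20 samples and 0 without Canton-S, Samarkand or Zimbabwe-109, with an unadjusted p under 0.05 in limma for 4, 0, 10, 11 and 12 probes in turn. It was 1 in the authors' table, centred or not, a lower probe, so that neither miR-2500 nor dsi-miR-965 was called there. It was also 1 with the mean of spots, with the filter on earlier males and without Oregon-R, and 1 to 2 with single samples left out. Without targets with runs of G it was 1 as well. That setting leaves out dsi-miR-965 itself, whose target begins with a run of G. Over 36 settings miR-2500 kept that call in 30 and dsi-miR-965 in 22. At puparium formation the count of 32 was 20 with median centring, 13 in the authors' table, 6 among probes above background in all 20 samples and 24 to 35 with single samples left out. In females 108 became 17 among those probes and 90 to 121 with single samples left out, and the F test's 101 became 36 and 85 to 110. The stage interaction, 3, was 10 with offset 16, 8 with quantile normalization, 5 in the centred authors' table, 0 among the bright probes (12 with an unadjusted p under 0.05 in limma) and 3 to 6 with single samples left out. The sex interaction, 38, was 18 with plain subtraction and in the authors' table, 21 with quantile normalization, 2 with median centring, 25 with cyclic loess, 17 without a filter, 1 among the bright probes and 20 to 52 with single samples left out.

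With the replicate block 19 probes were called. Same-numbered samples of different groups correlated in their deviations at -0.315 to 0.503 (36 pairs), and samples of different number at -0.525 to 0.549 (124 pairs). Of 20 samples 2 correlated best with their own number. No pairing by number was seen, though with 4 samples per group the check is weak and cannot settle it. Differences of probes near background are limited by the signal above the empty spots.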
